A study of Homo sapiens with 6 samples.

Results

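The 7 genes described here, EGFR, NRAS, HRAS, BRAF, MAP2K1, MAP2K2 and MAPK3, form the core of the route from a growth factor receptor through RAS, RAF and MEK to ERK. They were chosen by symbol and not by a rule on their values, but with earlier results of these data known. All 7 were found among the 28495 genes of the deposited table and passed the filter that kept 12466 genes for testing. The cells were NCI-H1299, an established human lung cancer line, and poly(A) RNA was sequenced from 3 libraries with complement factor B (CFB) silenced (sh-CFB) and 3 control libraries (sh-NC). Titles speak of hairpins and column names of siRNA, so the reagent used is not settled here. Whether replicates were separate cultures is not stated, so a p-value measures the spread between these libraries, which may be technical. Levels are in FPKM, the fragments per length of gene and size of library.

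When a ligand binds EGFR, a receptor tyrosine kinase, adaptors bring exchange factors to RAS, a small GTPase that is active while bound to GTP. Active RAS recruits RAF kinases such as BRAF to the membrane, RAF phosphorylates the MEK kinases encoded by MAP2K1 and MAP2K2, and MEK phosphorylates ERK, of which MAPK3 encodes ERK1. The route drives proliferation and induces immediate early genes such as FOS, and it is often activated by mutation in lung adenocarcinoma. NCI-H1299 is known for an activating mutation of NRAS. Signal through the route is set mainly by GTP loading and phosphorylation, which mRNA levels do not measure.

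Recovered depth ran from 26.2 to 40.0 M (M, 1e6) reads per library. The libraries differed along an axis tied to GC content: over 12397 genes (not independent replicates) the Spearman correlation of a library's deviations with GC content was 0.60 for sh-CFB replicate 1 and -0.55 for sh-NC replicate 1, at opposite ends. It was -0.10 and -0.16 for the other sh-CFB libraries, and -0.25 and 0.23 for sh-NC replicates 2 and 3. For CFB, the silenced gene, the sh-CFB libraries held 0, 0 and 2 reads and the sh-NC libraries 1, 6 and 5, too few to check a label by. Of the surfactant genes, which mark lung alveolar cells, SFTPA1, SFTPB, SFTPC and SFTPD stayed under 0.1 FPKM in each library. The 6 lung lineage markers in the table summed to 0.291 to 0.371 FPKM in sh-CFB and 0.319 to 0.685 in sh-NC. Among 8 epithelial markers KRT7, KRT8, KRT18 and CLDN4 reached a mean of 1 FPKM, while CDH1 and ESRP1 stayed under 0.1 (sums of 182 to 261 FPKM in sh-CFB and 173 to 257 in sh-NC). Of 5 mesenchymal markers VIM, CDH2, FN1 and ZEB1 reached a mean of 1 FPKM (398 to 484 and 389 to 450). Fibroblast, endothelial and erythroid markers summed to at most 0.329 FPKM in any library, and no member of these lists reached a mean of 1. Immune markers summed to 0.442 to 0.692 FPKM in sh-CFB and 0.813 to 1.09 in sh-NC, also with no member at a mean of 1 and with PTPRC, the pan-leukocyte marker, under 0.1 throughout.

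The core genes were all transcribed, and their levels spanned more than an order of magnitude. In sh-NC the means fell from MAP2K2 (79.0 ± 10.8 FPKM, SD, n = 3) through MAP2K1 (37.8 ± 2.46), MAPK3 (34.2 ± 3.79), HRAS (23.7 ± 1.63), NRAS (12.6 ± 4.48) and EGFR (5.80 ± 1.90) to BRAF (0.703 ± 0.252). By these sh-NC means MAP2K1, MAP2K2 and MAPK3 thus stood above HRAS and NRAS in FPKM, and these above EGFR and BRAF. The order is one of these genes and not of the steps of the route. ARAF, another RAF kinase, chosen after its values were seen, had a mean of 13.3 ± 1.05 FPKM in sh-NC, not below that of NRAS. In sh-CFB the order was MAP2K2 (92.4 ± 13.4), MAPK3 (42.6 ± 4.48), MAP2K1 (28.3 ± 4.12), HRAS (21.8 ± 3.76), NRAS (10.6 ± 3.32), EGFR (4.82 ± 1.23) and BRAF (0.592 ± 0.164). Neighbours in these orders were apart in each library except MAP2K1 and MAPK3 in sh-NC and MAP2K1 and HRAS in sh-CFB, whose ranges overlapped. Among all tested genes the mean FPKM of MAP2K2 lay at the 95.6th percentile, that of EGFR at the 59.5th and that of BRAF at the 6.4th.

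**Figure D1:**
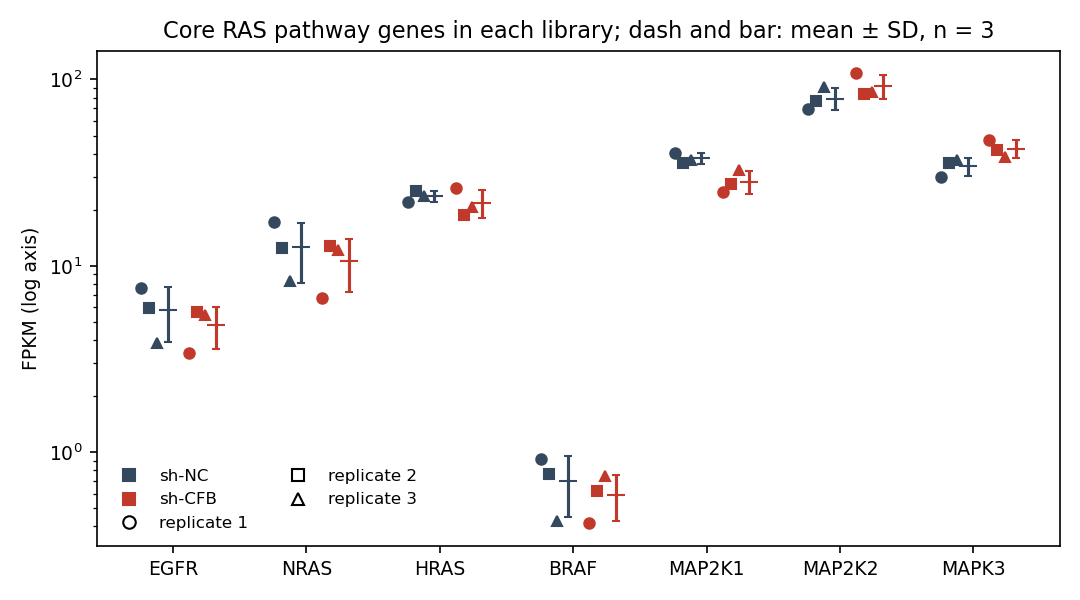
FPKM of the 7 core genes in each library, on a log axis. Points are libraries (dark, sh-NC; red, sh-CFB; shapes, replicates), dashes and bars the mean and SD of 3. MAP2K2 was highest and BRAF lowest in all 6 libraries, and the groups were apart only for MAP2K1 and MAPK3.

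These levels depend on the gene length that was used. The length recovered from the values was 23433 bases for BRAF and 12507 for EGFR, close to the sum of all annotated exons (23432 and 12521), whereas the longest annotated transcript has 9578 and 9821 bases. For HRAS it was 2435 against 1854 bases of annotated exons, and for MAP2K1 2971 against 3759, so the authors' gene models differed from GENCODE 29 there. A level per longest transcript, an alternative chosen after seeing the data, put BRAF at 1.72 ± 0.618 and EGFR at 7.39 ± 2.43 in sh-NC (SD, n = 3), still the lowest and next lowest of the 7. On that scale HRAS stood at 46.8 ± 3.22 and MAP2K1 at 32.9 ± 2.15, so the order of HRAS and MAP2K1 turned. The table holds gene totals, so splice isoforms of a gene could not be told apart, and only the related genes for RAS and MEK proteins are compared. BRAF, at a mean of 0.648 FPKM over all libraries, shares 1239 exon bases with NDUFB2 on the opposite strand, which had a mean of 13.5. MAP2K1, at a mean of 33.0, shares 216 with SNAPC5, which had 4.19. The strand setting of the counting is not given in the sources used here, so the weight of these overlaps is not known. The processed pseudogene MAP2K1P1 was listed at a mean of 0.496 FPKM and BRAFP1 at 0.0106, so a small share of reads may fall between copies.

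The promoters of the RAS and MEK pairs are printed to show how the related genes differ around a start given by RefSeq. For MAP2K1, MAP2K2 and EGFR 2 windows each were available, and only 1 of each is used here. Each window runs from 250 bases before to 50 after the start, is from RefSeq on GRCh38.p14 and reads 5′ to 3′ on the gene's strand. Capitals mark GC boxes, the letters GGGCGG on either strand, which Sp family factors are known to bind.
NRAS, chr1:114716722-114717021, reverse strand: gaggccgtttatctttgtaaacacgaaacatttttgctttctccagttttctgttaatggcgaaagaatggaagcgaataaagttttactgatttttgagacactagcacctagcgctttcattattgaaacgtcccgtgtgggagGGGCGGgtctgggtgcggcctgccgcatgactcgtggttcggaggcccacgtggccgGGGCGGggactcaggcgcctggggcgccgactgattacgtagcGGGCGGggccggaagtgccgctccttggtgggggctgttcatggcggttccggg
HRAS, chr11:535527-535826, reverse strand: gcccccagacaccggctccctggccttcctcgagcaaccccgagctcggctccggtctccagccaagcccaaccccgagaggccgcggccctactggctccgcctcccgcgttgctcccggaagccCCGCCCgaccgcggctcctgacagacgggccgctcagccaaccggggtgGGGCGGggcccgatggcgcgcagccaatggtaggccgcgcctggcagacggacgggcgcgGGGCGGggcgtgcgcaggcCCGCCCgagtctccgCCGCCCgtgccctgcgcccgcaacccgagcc
MAP2K1, chr15:66386662-66386961, forward strand: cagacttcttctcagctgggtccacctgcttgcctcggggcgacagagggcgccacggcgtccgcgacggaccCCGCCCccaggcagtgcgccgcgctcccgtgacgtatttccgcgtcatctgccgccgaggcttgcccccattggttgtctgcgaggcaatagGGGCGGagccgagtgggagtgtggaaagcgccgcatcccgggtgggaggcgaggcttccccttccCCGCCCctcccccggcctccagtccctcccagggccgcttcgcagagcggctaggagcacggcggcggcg
MAP2K2, chr19:4124073-4124372, reverse strand: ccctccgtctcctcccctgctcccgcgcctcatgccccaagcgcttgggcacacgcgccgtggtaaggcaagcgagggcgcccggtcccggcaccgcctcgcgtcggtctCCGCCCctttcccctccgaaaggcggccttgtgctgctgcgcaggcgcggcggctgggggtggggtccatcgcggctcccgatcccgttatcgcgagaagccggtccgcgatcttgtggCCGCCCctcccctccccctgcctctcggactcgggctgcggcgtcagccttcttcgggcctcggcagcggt
The windows held 3 GC boxes in NRAS, 5 in HRAS, 3 in MAP2K1 and 2 in MAP2K2, and of the other core genes MAPK3 held 8, EGFR 3 and BRAF 0. At least 1 match was present in 45.0% of 35116 promoter windows of this length. The letters TATAAA, the core of a TATA box, were in 0 of the 7 windows and in 11.5% of all windows. CCAAT on either strand was in those of HRAS (1), BRAF (2) and MAP2K1 (1) and in 34.6% of all. In the MAP2K1 window it reads as ATTGG. GC content of the window was 57.3% for NRAS and 78.0% for HRAS, and 72.0% and 73.7% for MAP2K1 and MAP2K2, against a median of 58.7%. The RAS pair thus differed in GC content of these windows, as its transcripts did, while the MEK pair had similar values there. The windows of HRAS, BRAF (chr7:140924219-140924518) and MAPK3 (chr16:30123171-30123470) lay wholly inside their annotated genes. These reverse-strand genes begin at 537287, 140924928 and 30123506. Their counts and GC content hold for the RefSeq start used and need not describe the promoter at the annotated start. Matches describe the letters only and no binding was measured.

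None of the 7 genes passed the test between the groups, which does not show that their levels were equal. With limma 0 of 7 passed an adjusted p of 0.05, against 7.45% of all tested genes (929 of 12466; 1.74% rose and 5.71% fell), a share at which few or none of 7 genes would pass, so the count sets the 7 apart from no other genes. The 929 shrank to 511, 39 and 400 when sh-CFB replicates 1, 2 or 3 were left out, to 249, 20 and 540 for those of sh-NC, to 206 with median-of-ratios factors and to 0 with the replicate block. Of the 7 core genes 2 had an unadjusted p under 0.05, against 25.9%. With voom on recovered reads 0 of 7 passed as well, against 5.43% of all (1.16% higher and 4.27% lower). Fitted differences were below 0 for 5 genes and above 0 for 2, with a median of -0.13 on the log2(FPKM + 0.5) scale, while the median over all tested genes was -0.15. In the main fit the 95% intervals of the 7 fold changes lay between 0.518 and 1.51, so a doubling lay outside each interval. Those of MAP2K1 and MAPK3 did not include 1. These limits hold for the deposited scaling only. With median-of-ratios factors the log2 differences were 0.52 (SE 0.22) for MAPK3, 0.43 (SE 0.25) for MAP2K2 and -0.21 (SE 0.13) for MAP2K1. With the correction for GC content described below, the log2 interval of MAP2K1 ran from -0.38 to 0.04 and that of MAPK3 from 0.03 to 0.47. The split of all changed genes moved with the scaling, from 217 higher and 712 lower as deposited to 465 and 636 with quantile normalization and 570 and 744 once GC content and length were corrected for as described below. Groups did not overlap for 2 of the 7, against 33.7% of tested genes.

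EGFR (ENSG00000146648, chromosome 7 from 55019021 to 55211628, forward strand) encodes the receptor at the head of the route. Listed here and below by replicate number, its FPKM was 3.41, 5.64 and 5.42 for sh-CFB and 7.65, 5.91 and 3.84 for sh-NC, from 1118 to 3772 reads. The lowest values were those of sh-CFB replicate 1 and sh-NC replicate 3, and the groups overlapped. The log2 difference was -0.22 (SE 0.27, 95% interval from -0.84 to 0.39, adjusted p = 0.643 with limma). Within sh-NC alone EGFR spanned a 1.99-fold range, while the fitted fold between groups was 0.856.

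NRAS and HRAS encode closely related GTPases that differ mainly in the tail that anchors them to membranes. NRAS (ENSG00000213281, chromosome 1 from 114704469 to 114716894, reverse strand) stood at 6.74, 12.8 and 12.1 FPKM in the sh-CFB libraries and 17.2, 12.4 and 8.29 in those of sh-NC, with 765 to 2941 reads. As for EGFR, sh-NC replicate 1 was highest and sh-CFB replicate 1 lowest, and the groups overlapped. NRAS differed by -0.24 on the log2 scale (SE 0.31, interval from -0.95 to 0.47, limma adjusted p = 0.667). Over the 6 libraries NRAS varied 2.56-fold, a log2 range at the 92.1th percentile of tested genes.

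HRAS (ENSG00000174775, chromosome 11 from 532242 to 537287, reverse strand) stood at 26.0, 18.8 and 20.6 FPKM in the sh-CFB libraries and 22.0, 25.3 and 23.8 in those of sh-NC, with 1527 to 2465 reads. The range of sh-CFB enclosed that of sh-NC, and sh-CFB replicate 1 was the highest of all libraries. HRAS differed by -0.13 on the log2 scale (SE 0.14, interval from -0.44 to 0.18, limma adjusted p = 0.588). HRAS varied least among the 7, by 1.38-fold over the 6 libraries.

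BRAF (ENSG00000157764, chromosome 7 from 140719327 to 140924928, reverse strand) encodes a RAF kinase that RAS recruits. BRAF was measured at 0.416, 0.620 and 0.741 FPKM in the sh-CFB libraries and 0.921, 0.762 and 0.426 in those of sh-NC, with 256 to 851 reads per library. The groups overlapped, with the lowest values again in sh-CFB replicate 1 and sh-NC replicate 3. The log2 difference was -0.13 (SE 0.22, interval from -0.63 to 0.38, limma adjusted p = 0.756), and the pseudocount understates changes at such a level.

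MAP2K1 and MAP2K2 encode MEK1 and MEK2, the kinases that phosphorylate ERK. MAP2K1 (ENSG00000169032, chromosome 15 from 66386817 to 66492312, forward strand) stood at 24.8, 27.4 and 32.8 FPKM in the sh-CFB libraries and 40.5, 35.8 and 36.9 in those of sh-NC, with 1929 to 4751 reads. All 3 sh-CFB libraries lay below all 3 sh-NC libraries, as was the case for 23.6% of tested genes. The log2 difference was -0.42 (SE 0.12, interval from -0.70 to -0.13), a fold of 0.750, with a limma unadjusted p of 0.00987 and an adjusted p = 0.0817. The two-sided exact permutation p was 0.1, the smallest that 3 libraries against 3 can give. Of the 7 genes MAP2K1 came closest to the threshold, at an adjusted p of 0.0627 without sh-CFB replicate 3, and over its 19 alternatives the adjusted p ranged from 0.0627 to 0.469.

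MAP2K2 (ENSG00000126934, chromosome 19 from 4090321 to 4124129, reverse strand) stood at 108, 84.0 and 85.4 FPKM in the sh-CFB libraries and 69.4, 76.7 and 90.7 in those of sh-NC, with 14324 to 17149 reads, the most of the 7. The groups overlapped because sh-NC replicate 3 was above sh-CFB replicates 2 and 3. MAP2K2 differed by 0.22 on the log2 scale (SE 0.14, interval from -0.10 to 0.55, limma adjusted p = 0.357).

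MAPK3 (ENSG00000102882, chromosome 16 from 30114105 to 30123506, reverse strand) encodes ERK1, the last kinase of the route. MAPK3 was measured at 47.5, 41.8 and 38.6 FPKM in the sh-CFB libraries and 29.8, 35.7 and 36.9 in those of sh-NC, with 4317 to 5448 reads. All 3 sh-CFB libraries lay above all 3 sh-NC libraries, as was the case for 10.0% of tested genes. The gap between the nearest libraries, 38.6 and 36.9 FPKM, was smaller than the SD of either group. The log2 difference was 0.32 (SE 0.12, interval from 0.04 to 0.60), a fold of 1.25, with a limma unadjusted p of 0.0317 and an adjusted p = 0.153, and the exact permutation p was 0.1.

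In the replicate 1 libraries the deviations of the core genes differed in sign between genes of lower and higher GC content. Transcript GC was 38.4% for NRAS, 40.0% for BRAF, 47.5% for EGFR, 50.4% for MAP2K1, 60.9% for MAP2K2, 61.4% for MAPK3 and 65.8% for HRAS, against a median of 49.3% over tested genes. In sh-CFB replicate 1 the 4 genes of lower GC stood between 0.31 and 0.68 below their own mean on the log2 scale, and the other 3 between 0.20 and 0.34 above it. In sh-NC replicate 1 the same 4 stood between 0.31 and 0.61 above, while MAP2K2 and MAPK3 deviated by -0.29 and -0.34 and HRAS by -0.04. MAP2K1 did not follow the other genes of lower GC elsewhere: it deviated by 0.18 in sh-NC replicate 3, where NRAS, EGFR and BRAF stood at -0.40, -0.38 and -0.29, and by -0.25 in sh-CFB replicate 2, where NRAS and EGFR stood at 0.20 and 0.12. After a correction of each library for GC content and length, the log2 range over the 6 libraries went from 1.29 to 0.58 for NRAS, from 1.06 to 0.43 for EGFR and from 0.63 to 0.31 for BRAF. It went from 0.46 to 0.49 for HRAS and from 0.63 to 0.55 for MAP2K2, while the median tested gene went from 0.73 to 0.50. The correction removes any group difference that runs along GC content, so it does not tell a technical difference from a biological one, and the part of GC content in these values was not tested further.

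**Figure D2:**
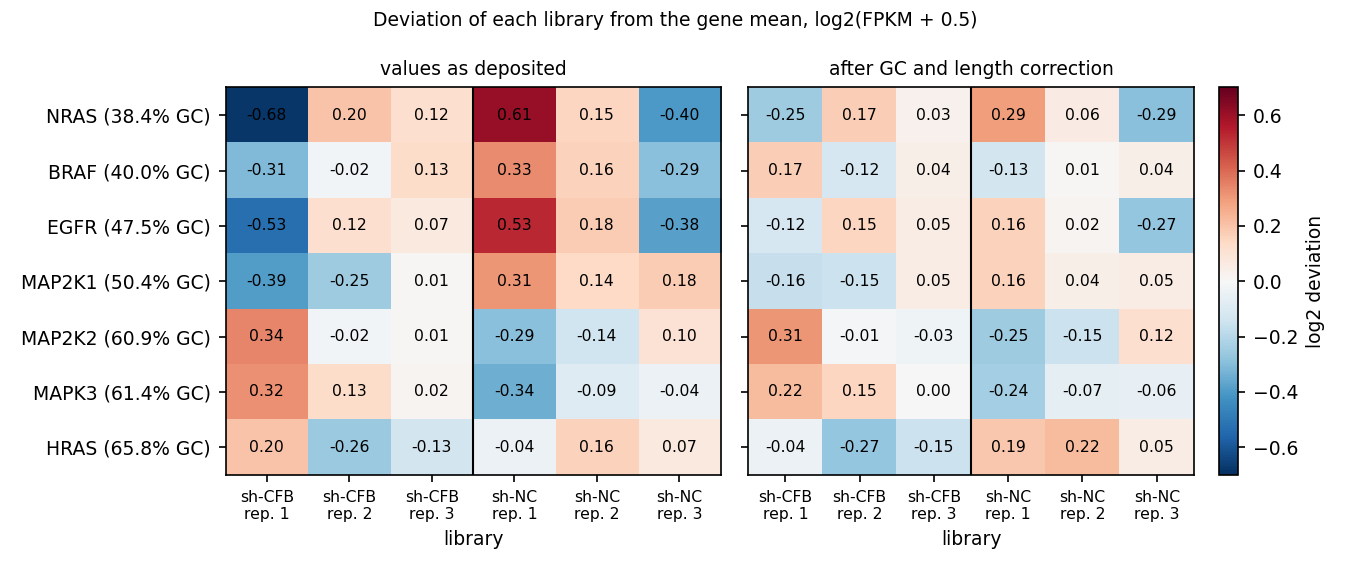
Each cell gives a library's log2 deviation from the gene's mean over 6 libraries, with genes ordered by GC content from top to bottom, for deposited values (left) and corrected ones (right). In the left panel the first 4 genes are lowest in sh-CFB replicate 1 and highest in sh-NC replicate 1, and the deviations are smaller for most genes on the right.

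With that correction the differences between groups changed in part. EGFR stood at 0.06 (SE 0.13, limma adjusted p = 0.820), NRAS at -0.04 (SE 0.17, adjusted p = 0.909) and BRAF at 0.06 (SE 0.13, adjusted p = 0.806). MAP2K1 went from -0.42 to -0.17 (SE 0.09, limma adjusted p = 0.255). MAP2K2 (0.18, SE 0.13, adjusted p = 0.406) and MAPK3 (0.25, SE 0.09, adjusted p = 0.127) kept most of their size with the correction. On deposited values without replicate 1 of both groups, MAP2K2 stood at only 0.02 (SE 0.11) and MAPK3 at 0.14 (SE 0.10). With the correction HRAS went further from 0, from -0.13 to -0.31 (SE 0.09, interval from -0.52 to -0.09, limma adjusted p = 0.0758). Here too 0 of 7 passed, against 10.6% of the genes tested in that fit (4.6% higher and 6.0% lower), and the median of the 7 was 0.06 beside 0.01 over all genes.

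**Figure D3:**
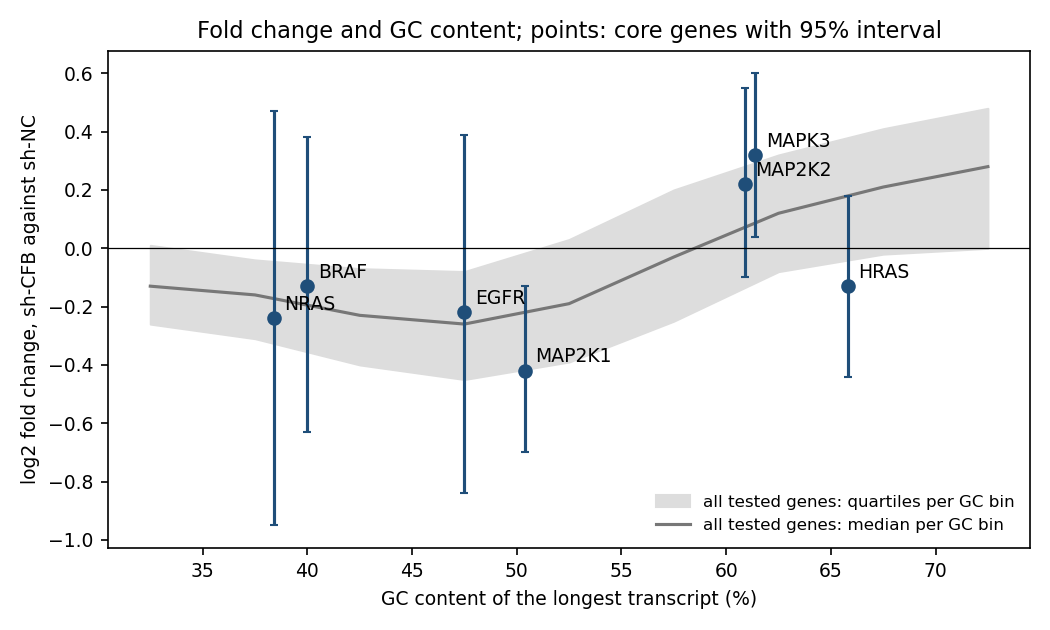
Log2 fold change (sh-CFB against sh-NC) against transcript GC content in percent; blue points are the core genes with their 95% intervals, the grey line and band the median and quartiles of all tested genes in bins of 5 percentage points. HRAS, at 65.8% GC, lies below the band, MAP2K1 and MAPK3 lie at its lower and upper edge, and the other 4 lie within it.

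Within a library the ratio of related genes does not depend on library scaling, and the gene length used enters its size but not its difference between groups. MAP2K2 exceeded MAP2K1 by 4.36, 3.06 and 2.60-fold in the sh-CFB libraries and by 1.71, 2.14 and 2.46-fold in those of sh-NC. The groups were apart, though sh-CFB replicate 3 and sh-NC replicate 3 nearly met. On the log2 scale the means were 1.69 ± 0.38 and 1.05 ± 0.26 (SD, n = 3 each), a difference of 0.64 where the exact permutation test (two-sided) gave p = 0.1, its smallest value, or 0.3 adjusted over the 3 ratios that were computed, of which the RAS and MEK ratios are given here. The difference was 0.35 after the GC and length correction, with overlapping groups (exact p = 0.2), and 0.29 without replicate 1 of both groups.

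HRAS exceeded NRAS by 3.86, 1.46 and 1.70-fold in the sh-CFB libraries and by 1.28, 2.04 and 2.88-fold in those of sh-NC, so HRAS was the higher of these RAS genes in all 6 libraries. The log2 means were 1.05 ± 0.72 and 0.94 ± 0.56 (SD, n = 3 each), a difference of 0.11 (exact permutation p = 0.9, also 0.9 adjusted). That difference became -0.27 after the correction and -0.60 without replicate 1 of both groups. The direction thus rested on the replicate 1 libraries: it was -0.30 without the one of sh-CFB and -0.19 without the one of sh-NC.

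**Figure D4:**
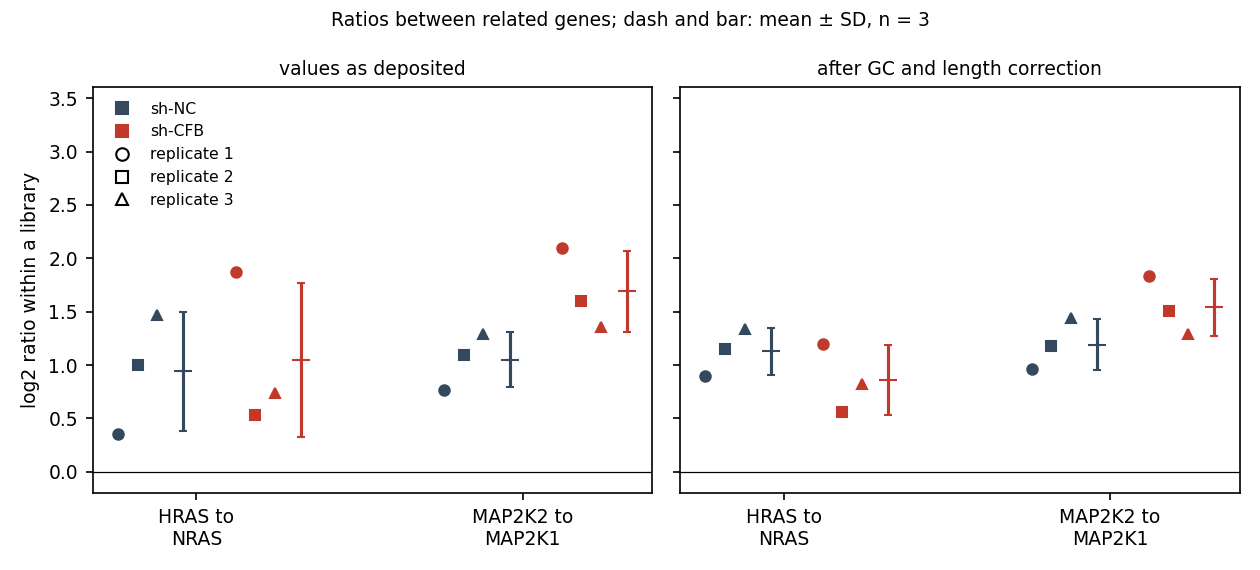
Log2 ratios within each library for HRAS to NRAS and MAP2K2 to MAP2K1, as deposited (left) and after the GC and length correction (right); dashes and bars are the mean and SD of 3 libraries. Of the 4 comparisons only MAP2K2 to MAP2K1 on the left shows groups that do not overlap.

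The other genes of the route were taken from 10 lists by role. Of 147 listed genes 108 were tested, and 2 rose, 5 fell and 101 did not pass (6.48% changed, against 7.45% of all tested genes), with a median log2 change of -0.11 beside -0.15 over all. This count changed with single libraries: leaving out the sh-CFB libraries in turn gave 3, 0 and 3 changed genes and leaving out those of sh-NC gave 1, 0 and 2. Using voom on recovered reads, 0 of the 108 rose and 3 fell, against 1.16% and 4.27% of all genes in that fit. Once GC content and length were corrected for, 4 of the 108 rose and 4 fell, against 4.6% and 6.0% of all genes in that fit.

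Upstream of RAS, 0 of 2 tested EGF family ligands changed (list median -0.31). HBEGF, a ligand of EGFR, stood at 5.48 ± 0.11 FPKM in sh-CFB and 6.12 ± 1.08 in sh-NC (SD, n = 3 each; limma adjusted p = 0.600). Of 9 receptor tyrosine kinases 1 rose and 8 did not pass (median -0.03). FGFR4, a fibroblast growth factor receptor, rose from 8.85 ± 1.28 to 14.3 ± 2.46 FPKM, a log2 change of 0.66 (SE 0.16, limma adjusted p = 0.0478). Its libraries stood at 17.1, 13.0 and 12.7 FPKM in the sh-CFB libraries and 7.51, 9.02 and 10.0 in those of sh-NC, and leaving out any 1 library ended the call. With the GC and length correction FGFR4 stood at 0.56 (limma adjusted p = 0.0324). Of 13 adaptors and exchange factors 0 changed (median -0.17), and SHC1, an adaptor, stood at 82.9 ± 3.86 and 78.6 ± 5.14 FPKM in sh-CFB and sh-NC.

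At the level of RAS, 1 of 9 other RAS family GTPases rose, 1 fell and 7 did not pass (median -0.25). RRAS, a relative of the RAS genes that acts on integrins and adhesion, rose from 226 ± 37.5 to 395 ± 93.5 FPKM (log2 0.79, SE 0.19, limma adjusted p = 0.0478), above the level of any core gene. RHEB, the GTPase that activates mTORC1, fell from 27.7 ± 0.989 to 21.1 ± 1.42 FPKM (log2 -0.39, SE 0.09, limma adjusted p = 0.0482). Neither call held when any 1 library was left out, and after the GC and length correction RHEB stood at -0.10 (adjusted p = 0.461) and RRAS at 0.59 (adjusted p = 0.0210).

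Of 13 RAS GAPs and negative regulators 0 changed (median -0.09). PEBP1, an inhibitor of RAF, stood at 129 ± 6.54 FPKM in sh-CFB and 153 ± 6.92 in sh-NC (log2 -0.25, limma adjusted p = 0.133). Of 8 genes for lipid processing and trafficking of RAS 1 fell and 7 did not pass (median -0.03). The one that fell was ICMT, the methyltransferase that finishes the processed tail of RAS and other prenylated proteins, from 23.5 ± 2.40 to 12.5 ± 2.18 FPKM (log2 -0.89, SE 0.15, limma adjusted p = 0.0164). Its libraries stood at 10.2, 12.7 and 14.6 FPKM in the sh-CFB libraries and 26.2, 22.2 and 21.9 in those of sh-NC, far apart. After the GC and length correction ICMT stood at -0.60 (adjusted p = 0.0110), and its adjusted p was above 0.05 without sh-CFB replicate 2, sh-NC replicate 1 or sh-NC replicate 2, reaching 0.0879.

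Among 19 other RAF and ERK kinases, scaffolds and partners 1 fell and 18 did not pass (median -0.14). YWHAB, a 14-3-3 protein that holds RAF kinases, fell from 31.2 ± 2.47 to 19.0 ± 3.46 FPKM (log2 -0.71, SE 0.15, limma adjusted p = 0.0312). Without sh-CFB replicate 2 or any 1 of the sh-NC libraries it did not pass (adjusted p up to 0.124). With the GC and length correction YWHAB stood at -0.45 (limma adjusted p = 0.0369). ARAF, a RAF kinase related to BRAF that was chosen after its values were seen, stood at 13.4 ± 1.18 FPKM in sh-CFB and 13.3 ± 1.05 in sh-NC (limma adjusted p = 0.978), a higher level per length than that of BRAF.

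Downstream of ERK, 1 of 14 substrates fell and 13 did not pass (median -0.11). STMN1, a microtubule-destabilizing phosphoprotein, fell from 63.1 ± 6.32 to 38.9 ± 3.36 FPKM (log2 -0.69, SE 0.11, limma adjusted p = 0.0153), and after the GC and length correction it stood at -0.47 (adjusted p = 0.153). Without sh-CFB replicate 2 or sh-NC replicate 2 it did not pass (adjusted p up to 0.0843). Of 10 genes known as transcriptional output of ERK 1 fell and 9 did not pass (median 0.00). ETV5, an ETS factor induced by ERK, fell from 20.5 ± 3.20 to 12.4 ± 2.23 FPKM (log2 -0.70, SE 0.17, limma adjusted p = 0.0463), and leaving out any 1 library ended the call. With the GC and length correction ETV5 stood at -0.40 (limma adjusted p = 0.0313). After the correction SPRY2, a feedback inhibitor of the route, rose (0.66, adjusted p = 0.0233), and so did MYC, a transcription factor that ERK stabilizes (0.51, adjusted p = 0.0112), while RPS6KA4, which encodes the kinase MSK2, fell (-0.37, adjusted p = 0.0357). In the main fit these 3 stood at 0.38, 0.34 and -0.25 and did not pass (limma adjusted p = 0.239, 0.0767 and 0.221). SPRY2 also passed without replicate 1 of both groups (0.63, limma adjusted p = 0.035). Of 11 genes of the p38, JNK, ERK3 and ERK5 branches 0 changed (median -0.20), with MAP2K3, a p38 activator, the most abundant at 85.6 ± 6.92 FPKM in sh-CFB and 71.5 ± 11.1 in sh-NC (adjusted p = 0.240).

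**Figure D5:**
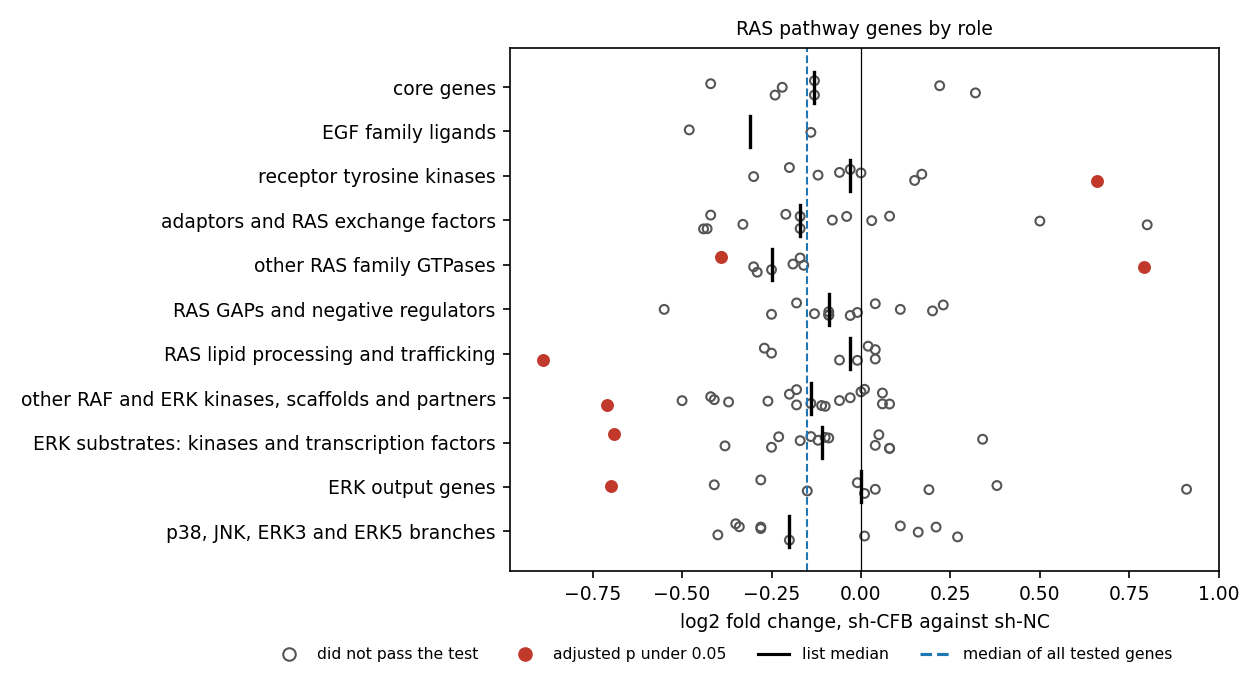
Log2 fold change (sh-CFB against sh-NC) of each tested gene, by role; filled points passed an adjusted p of 0.05, bars are list medians and the dashed line is the median of all tested genes, -0.15. The 7 core genes lie between -0.42 and 0.32 with none filled, and the 7 filled points lie in 6 of the 10 lists.

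The likeness of patterns was measured as the root mean square distance between log2 values centred over the 6 libraries, a description that shared depth and GC content enter. Within the core set the closest pairs were EGFR with NRAS (0.08) and MAP2K2 with MAPK3 (0.09), and the farthest was NRAS with MAP2K2 (0.61). HRAS stood at 0.53 from NRAS, and MAP2K1 at 0.42 from MAP2K2, so the related genes were not each other's nearest. Among 5237 genes with a mean of at least 5 FPKM, the nearest were ADAM9 (0.042) and ZMYND8 (0.047) for EGFR, PURB (0.044) and TGOLN2 (0.048) for NRAS, and SRP72 (0.041) and SAMD4B (0.044) for BRAF. For HRAS they were MED25 (0.047) and PHLDA2 (0.048), and for MAP2K1 ALKBH5 (0.027) and CPOX (0.031). TSEN34 (0.023) was the nearest to MAP2K2, and for MAPK3 they were BIN1 (0.020) and ELOVL1 (0.023). Within a distance of 0.1 lay 50 genes for NRAS and 352 for MAP2K2, so such likeness was common. The distances of BRAF are a special case, as the pseudocount of 0.5 shrinks its deviations. BRAF and EGFR spanned 2.21-fold and 2.24-fold in FPKM, but 0.63 and 1.06 on the log2(FPKM + 0.5) scale used here. The genes nearest to BRAF thus match its shrunken pattern.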

How the data were processed

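TRIzol RNA was made into stranded poly(A) libraries, per the labels' protocols. The authors deposited FPKM values, 1 table with a column for each library. The submitters' processing notes name FastQC 0.11.9, Trimmomatic 0.39, STAR 2.7.3a, featureCounts 2.0.1 and GRCh38, while the strand setting, annotation release and formula for FPKM are not given there. Since each value is a whole number of reads times a constant, reads, lengths and totals were recovered from the steps between values. For 99.9% of genes reads came out whole within 1e-06, an allowance that grew in proportion for large counts, and 87.6% of lengths were within 10% of the exon length in GENCODE 29. Depth was 26.2, 33.4 and 38.4 M for sh-CFB and 39.4, 40.0 and 32.9 M for sh-NC, by replicate number.

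Log2(FPKM + 0.5) was fitted with limma 3.58.1 (R 4.3.3, intensity trend) where the mean FPKM reached 0.5, with Benjamini-Hochberg adjustment over all 12466 genes. Such fold changes understate changes of low genes. The GC and length correction subtracted from each library a spline fit (4 degrees of freedom each) of its deviations on transcript GC content and log length. Ratios were compared with two-sided exact permutation tests. The fit was checked on simulated data with known changes and independent noise. The simulation held no axis tied to GC content, so the check does not cover the axis seen in these libraries. The supplied name table matched 28432 gene IDs, and coordinates and GC content came from GENCODE 29. Apart from the 7 genes and CFB, the text names up to 2 changed genes per direction in each list by lowest adjusted p, or the most abundant tested gene of a list with none, and the 2 genes of nearest pattern. ARAF and the 3 genes that changed after the correction but not in the main fit were chosen after their values were seen. Results on a few other genes are not reported here. The members and lists were chosen with earlier results of these data known. Other work used Python 3.11.15 with numpy 2.4.6, pandas 2.3.3 and matplotlib 3.10.9.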

Additional observations from a re-analysis of the deposited data

How the results depend on the processing

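The count of 0 changed core genes was the same under all 19 alternatives, and no core gene passed in any of them. BRAF was not tested with the filter at a mean of 1 FPKM. MAP2K1, MAP2K2 and MAPK3 kept their direction throughout, but not their size. Without replicate 1 of both groups they stood at -0.27, 0.02 and 0.14. Without a filter on low values 324 genes changed among all tested and 1 over the RAS pathway lists; with median-of-ratios factors these counts were 206 and 2, without the intensity trend 531 and 2. The pathway count was 3 with voom, where 677 of all tested genes changed. Leaving out 1 library gave 20 to 540 genes among all tested and 0 to 3 over the lists. The direction of single genes turned as follows. After the GC and length correction EGFR and BRAF stood at 0.06 each, HBEGF at 0.10 and ARAF at 0.00, and the HRAS to NRAS difference at -0.27. With median-of-ratios factors HRAS stood at 0.07 and HBEGF at 0.05. With quantile normalization HBEGF stood at 0.03, and with equal totals ARAF at -0.05. Without replicate 1 of both groups EGFR was 0.19, NRAS 0.28, BRAF 0.12, ARAF -0.11 and the HRAS to NRAS difference -0.60. Leaving out single libraries gave ranges of -0.50 to 0.04 for NRAS, -0.30 to 0.00 for BRAF, -0.05 to 0.07 for ARAF and -0.30 to 0.38 for HRAS to NRAS; NRAS stood at 0.04 without sh-CFB replicate 1 and at 0.00 without sh-NC replicate 1, where BRAF also stood at 0.00. The cause of these shifts was not tested. With levels per longest transcript, added after seeing the data, the rank in sh-NC went to 3 for HRAS, 4 for MAP2K1 and 2 for MAPK3.

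The labels give both groups replicates 1 to 3. Deviations from the group means of equally numbered libraries had correlations across genes of -0.54, 0.07 and -0.45, so the numbers were not taken to pair the libraries. With the replicate block 0 genes changed among all tested and 0 over the lists, with 1770 genes at an unadjusted p under 0.05, and with the block and the GC and length correction the counts were 0 and 0, with 2466. In that last fit EGFR and BRAF stood at 0.06, HBEGF at 0.10 and ARAF at 0.00. The block left the difference in MAP2K2 to MAP2K1 at 0.64 (two-sided exact permutation p = 0.25, the smallest that 3 blocks can give). With 3 libraries a group the printed intervals give the differences compatible with the spread between these libraries only.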
